A study of Rattus norvegicus with 4 samples.

Results

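The transcripts described here are the 4 early growth response (Egr) factors, Egr1, Egr2, Egr3 and Egr4, and the 2 Nab corepressors, Nab1 and Nab2. They were chosen by gene symbol, and all 6 were found among the 30708 genes listed in each deposited table. Transcript levels were measured by poly(A) RNA-Seq in S16 cells, an immortalized rat Schwann cell line grown in serum without axons and without added treatment. One population was at passage 9 and was the parent of the lines edited in the study, and the other population was unmodified cells at passage 39. Each population was sequenced as 2 libraries that the labels call technical replicates, here named library 1 and library 2 after the last number of the sample title. With 1 population at each passage, a difference between passages has no replicate check.

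Egr proteins are zinc-finger transcription factors that bind GC-rich sites through a shared DNA-binding domain. Egr1 is an immediate early gene that responds quickly to growth factors and serum, whereas Egr2 (Krox20) drives peripheral myelination in Schwann cells together with Sox10. Nab1 and Nab2 bind Egr1, Egr2 and Egr3 and can turn them into repressors, in part by recruiting the Chd4 subunit of the NuRD chromatin complex. Egr2 and the Nab proteins are required together for myelination, and Egr factors can activate Nab2, which gives a feedback loop. Egr3 and Egr4 are best known in muscle spindles and neurons.

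The deposited unit is RPKM, which divides reads by gene length in kilobases and by library total, so levels can be compared between genes. Library totals recovered from the values lay between 34.2 and 41.4 M reads (M, 1000000 reads), which sets the counting error of each level. These totals are larger than the approximate read number per cell line given in the paper, and the reason is not known. The libraries paired by their number and not by their population. On the log2(RPKM + 1) scale, over 11025 genes whose mean reached 1 RPKM, the SD of the difference was 0.339 and 0.334 between the 2 libraries of passage 9 and of passage 39. It was 0.0796 between the first and 0.0823 between the second libraries of the 2 passages. Each value of the Egr and Nab genes is therefore given by library, and comparisons are given by passage and by library number. The labels do not say what the library number stands for, so a difference by number cannot be told apart from a batch of libraries or from exchanged labels. Of the 10 Schwann cell markers, 9 had a mean of at least 1 RPKM, among them Sox10 at 176 RPKM. Gjb1, a connexin of myelinating Schwann cells, was at 0.113 RPKM, although the labels call the cells myelinating.

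Nab2 was the most abundant of the 6 transcripts, and Egr2 was the most abundant Egr factor. Nab2 was at 19.1 and 25.8 RPKM in libraries 1 and 2 of passage 9, and at 19.5 and 25.6 RPKM in those of passage 39. Its mean of 22.5 ± 0.0681 RPKM (SD, n = 2 populations) was above that of 71.0% of the 11025 genes. Nab1 was lower in every library: libraries 1 and 2 of passage 9 held 7.05 and 9.85 RPKM and libraries 1 and 2 of passage 39 held 7.69 and 9.64 RPKM, for a mean of 8.56 ± 0.151 RPKM. The ratio of Nab2 to Nab1, computed from the RPKM values, stayed between 2.54 and 2.71 in the 4 libraries. The corepressor genes thus kept nearly the same proportion in libraries whose levels differed.

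Egr2 was at 5.90 and 10.5 RPKM in libraries 1 and 2 of passage 9, and at 6.21 and 11.0 RPKM in libraries 1 and 2 of passage 39. Its mean was 8.39 ± 0.297 RPKM (SD, n = 2 populations). Both library 2 values lay far above both library 1 values, while the populations were close to each other. Egr2 rested on between 630 and 1339 recovered reads per library, and the 95% intervals of its first libraries, 5.47 to 6.34 and 5.73 to 6.71 RPKM, did not reach those of its second libraries, 9.86 to 11.1 and 10.4 to 11.6 RPKM. These intervals are exact (Clopper-Pearson) and cover counting error only.

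Egr1 was expressed below Egr2 in every library and had the opposite order of libraries. It was at 3.62 and 1.96 RPKM in libraries 1 and 2 of passage 9, and at 3.27 and 2.30 RPKM in libraries 1 and 2 of passage 39, with a mean of 2.79 ± 0.00637 RPKM (SD, n = 2 populations). That mean was above 14.5% of the 11025 genes. The very small SD arose because the high and low libraries averaged out within each population, so it does not describe the spread of single libraries. Counting intervals of the first libraries, 3.17 to 4.12 and 2.80 to 3.80 RPKM, lay above those of the second, 1.60 to 2.37 and 1.94 to 2.70 RPKM.

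Egr3 and Egr4 were the least abundant members, and both had a mean under 1 RPKM. Egr3 was at 0.618 and 0.665 RPKM in libraries 1 and 2 of passage 9, and at 0.762 and 0.920 RPKM in libraries 1 and 2 of passage 39, with a mean of 0.741 ± 0.141 RPKM. It rested on 42 to 68 recovered reads, and its 4 intervals overlapped. Egr4 reached 0.124 and 0.150 RPKM in the first libraries of passage 9 and passage 39 and 0.637 and 0.680 RPKM in the second, with a mean of 0.397 ± 0.0244 RPKM. Both first libraries of Egr4 rested on 11 recovered reads, against 48 and 60 in the second libraries of passage 9 and passage 39. The Egr4 intervals of the first libraries ended at 0.221 and 0.268 RPKM, and those of the second began at 0.470 and 0.519 RPKM. For scale, 3 reads of Egr4 correspond to between 0.0337 and 0.0408 RPKM.

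**Figure D1:**
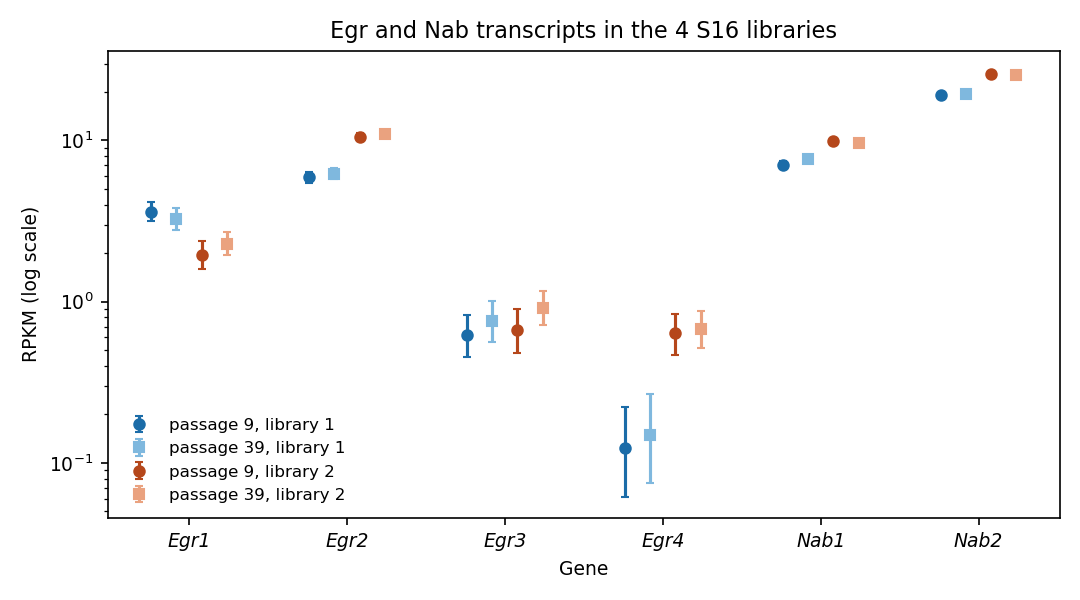
RPKM (log scale) of each gene in the 4 S16 libraries, with circles for passage 9, squares for passage 39, blue shades for library 1 and orange shades for library 2; bars are exact 95% counting intervals. Egr2, Egr4, Nab1 and Nab2 were higher in both second libraries, Egr1 was higher in both first libraries, and the 4 intervals of Egr3 overlapped.

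By mean RPKM the order was Nab2, Nab1, Egr2, Egr1, Egr3 and Egr4. Nab1 and Egr2, neighbours in this order, did not differ beyond their spread over the 2 populations. Their ratio even changed side with the library number, since Egr2 was at 0.836 and 0.807 times Nab1 in the first libraries of passage 9 and passage 39 and at 1.06 and 1.14 times Nab1 in the second. Egr3 lay above Egr4 in all 4 libraries, with intervals that overlapped in both second libraries and did not overlap in the first. Every other step in the order was larger than the counting intervals in each library.

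The make-up of the Egr family differed by library number. Egr2 accounted for 57.5% and 59.8% of the summed Egr RPKM in the first libraries of passage 9 and passage 39, and for 76.3% and 73.9% in the second. Egr1 accounted for 35.3% and 31.5% in the first libraries and for 14.3% and 15.4% in the second, in the same order. The ratio of Egr2 to Egr1 was thus 1.63 and 1.90 in the first libraries and 5.34 and 4.79 in the second. Egr3 made up between 4.84% and 7.34% in all 4 libraries, and Egr4 rose from 1.21% and 1.44% to 4.64% and 4.56%. The summed Nab RPKM, in contrast, was between 2.37 and 2.62 times the summed Egr RPKM in each library.

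**Figure D2:**
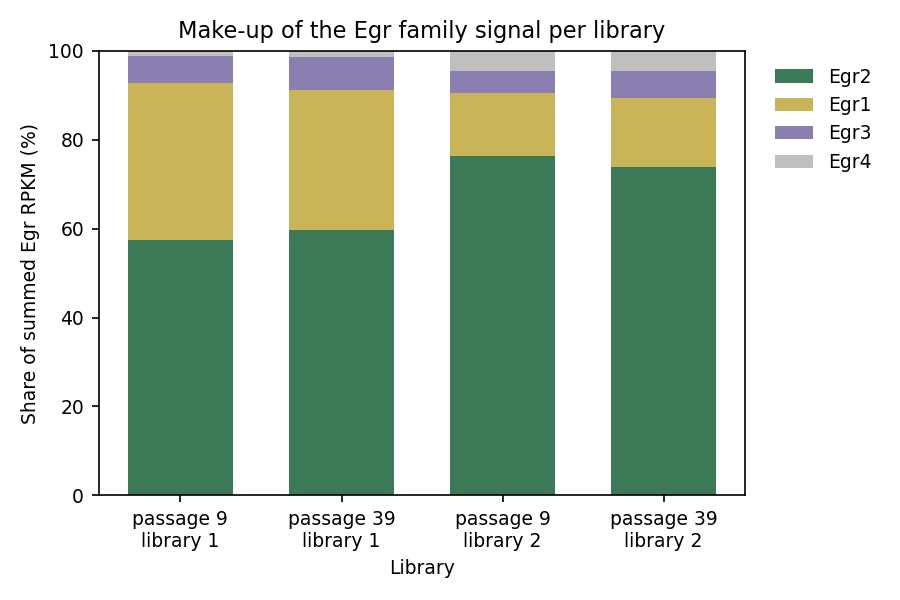
Share (%) of the summed RPKM of the 4 Egr genes held by each gene, as stacked bars that start at 0, for the first libraries (left pair) and the second libraries (right pair). Egr2 held between 57.5% and 59.8% in the first libraries and between 73.9% and 76.3% in the second, while Egr1 held 31.5% and 35.3% in the first and 14.3% and 15.4% in the second.

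The 250 bases before the annotated gene start were examined for sites of factors known to act on these genes, since Egr1 and Egr2 differed by library number in opposite directions. Sequences were from RefSeq (GRCr8), where 5 of the 6 genes had an entry, and Egr3 was not among them. The motifs were chosen after the sequences were seen and were searched on both strands. They were the CArG box of serum response factor, the core TGACG of cAMP-response elements, and the Egr site GCGNGGGCG. These motifs did not overlap each other in the 5 sequences, and they were present in 1.5%, 18.2% and 4.29% of the same 250 bases of all 33469 promoters in the table, in that order. The sequences of Egr2, which of the 6 genes has the largest tested difference by library number, of Egr4, its most unequal relative, and of Nab1, which has Egr sites, are shown 5′ to 3′ on the strand of the gene. Capitals mark the matches: a CArG box and then a TGACG core (on the other strand) in Egr2, 2 TGACG cores on the other strand in Egr4, and 3 Egr sites with a TGACG core between the first and the second in Nab1.
Egr2, chr20:21054442-21054691, minus strand: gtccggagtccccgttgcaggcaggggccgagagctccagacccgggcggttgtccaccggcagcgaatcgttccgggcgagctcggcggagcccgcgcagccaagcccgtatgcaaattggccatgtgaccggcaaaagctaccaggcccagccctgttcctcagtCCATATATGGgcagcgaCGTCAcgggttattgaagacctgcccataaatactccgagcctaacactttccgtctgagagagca
Egr4, chr4:119607818-119608067, minus strand: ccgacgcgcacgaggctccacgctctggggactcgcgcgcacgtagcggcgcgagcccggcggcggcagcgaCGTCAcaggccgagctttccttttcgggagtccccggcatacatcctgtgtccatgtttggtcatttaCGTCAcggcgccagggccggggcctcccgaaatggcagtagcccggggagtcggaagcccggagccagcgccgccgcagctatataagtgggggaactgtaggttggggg
Nab1, chr9:56545392-56545641, plus strand: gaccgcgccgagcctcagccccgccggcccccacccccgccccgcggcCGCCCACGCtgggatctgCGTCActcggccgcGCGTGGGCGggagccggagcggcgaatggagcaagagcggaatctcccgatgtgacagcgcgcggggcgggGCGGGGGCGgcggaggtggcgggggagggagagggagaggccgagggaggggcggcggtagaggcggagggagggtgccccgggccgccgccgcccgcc

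The CArG box of Egr2 lay 83 to 74 bases before its annotated start, and its TGACG core lay 66 to 62 bases before it. Egr1 had a CArG box and a TGACG core at those same distances, and in addition a second CArG box 105 to 96 bases and a second TGACG core 135 to 131 bases before its start. Egr1 and Egr2 thus shared a CArG box and a TGACG core at the same distances, and Egr1 had further matches. Whether any match bears on the differences by library number was not tested. Nab2 had no match to any of the 3 motifs in this window. A match describes letters and does not show a bound site.

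**Figure D3:**
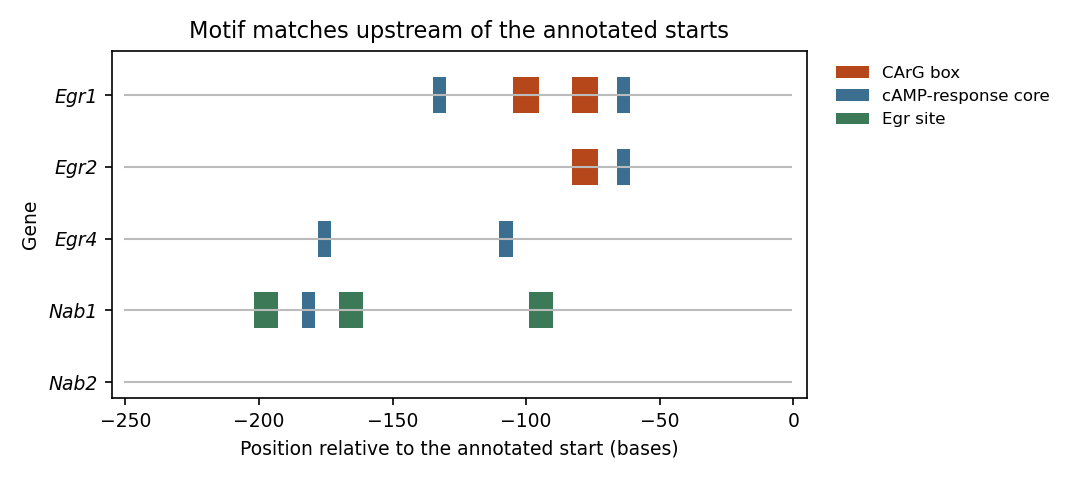
Matches to the 3 motifs in the 250 bases before the annotated start of 5 genes; the horizontal axis is the position relative to the start in bases, and bar width is the length of the match. Egr1 and Egr2 have a CArG box 83 to 74 bases before the start, Nab1 has 3 Egr sites, and Nab2 has no match.

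The comparison of passage 39 with passage 9 asked whether levels moved over the many passages between the populations. None of the 6 genes differed 2-fold on the log2(RPKM + 1) scale, where 0.00907% of the 11025 genes, or 1 gene, did. Egr3 and Egr4 are not among the 11025 genes, and this scale understates folds at their low levels. Egr2 was at 8.18 RPKM at passage 9 and 8.60 RPKM at passage 39, a log2 difference of 0.064. This difference was alike within the first libraries (5.90 against 6.21 RPKM) and within the second (10.5 against 11.0 RPKM), and the counting intervals of both ratios of passage 39 to passage 9, 0.945 to 1.17 and 0.969 to 1.14, included 1. A larger absolute difference than that of Egr3 was found in 1.71% of the 11025 genes. Egr3 had the largest log2 difference of the 6 genes, 0.16, and was higher at passage 39 within both library numbers. Its ratios of passage 39 to passage 9 were 1.23 within the first libraries and 1.38 within the second, with intervals of 0.805 to 1.90 and 0.928 to 2.08 that included 1. Within each library number alone, the counts of Egr3 therefore did not exclude a ratio of 1. With 1 population at each passage, its difference was not tested.

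Egr1, Nab1 and Nab2 moved in opposite directions from passage 9 to passage 39 in the 2 library numbers. For Egr1 the log2 difference was -0.11 within the first libraries and 0.16 within the second, and for Nab1 it was 0.11 and -0.028. The ratio of Nab1 within the first libraries, 1.09, had a counting interval of 1.01 to 1.18, which did not include 1, whereas the other intervals for Egr1, Nab1 and Nab2 did. Averaged over both libraries, the log2 differences were 0.020 for Egr1, 0.041 for Nab1, 0.0087 for Nab2 and 0.035 for Egr4.

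The second libraries were then compared with the first within each population, with limma on log2(RPKM + 1) over all 11025 genes. Egr2, Nab1 and Nab2 were higher and Egr1 was lower in the second libraries. All 4 Egr and Nab genes that reached a mean of 1 RPKM passed an adjusted p of 0.05, but so did 74.1% of all genes tested, 49.7% with higher and 24.4% with lower values in the second libraries. Passing the threshold is thus the common state of a gene in this comparison, and the sizes say more. Of all calls 67.1% were higher in the second libraries, against 53.7% after median-ratio scaling, 43.8% after rescaling each library to a sum of 1000000 and 48.6% when set against genes of similar length. The p-values rest only in part on the spread of a gene between 2 populations, since limma moves its variance toward a trend over all genes. For Egr2 the differences within passage 9 and passage 39 were 0.734 and 0.735, far closer than its standard error of 0.040.

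Egr2 rose by 0.73 ± 0.040 on the log2 scale (standard error; limma, adjusted p = 1.54e-06, n = 2 populations), from a mean of 6.05 RPKM in the first libraries to 10.7 RPKM in the second. The second libraries were 1.78-fold (95% counting interval 1.62 to 1.95) and 1.77-fold (1.61 to 1.95) above the first at passage 9 and passage 39. Only 1.17% of the 11025 genes, or 129 genes, had a larger positive difference. Egr2 itself stayed under 2-fold, a size that 1.1% of the 11025 genes reached in either direction.

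Egr1 fell by 0.51 on the log2 scale (standard error 0.074; limma, adjusted p = 0.000341, n = 2 populations), from a mean of 3.45 RPKM in the first libraries to 2.13 RPKM in the second. The ratio of the second to the first library was 0.541 (95% counting interval 0.425 to 0.684) at passage 9 and 0.702 (0.558 to 0.881) at passage 39. Of the 11025 genes, 4.34% had a larger fall. Egr1 was the only tested member that was lower in the second libraries.

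Nab1 and Nab2 rose by similar amounts. Nab1 rose by 0.36 ± 0.046 on the log2 scale (limma, adjusted p = 0.000168) and Nab2 by 0.39 ± 0.030 (limma, adjusted p = 7.67e-06; standard error, n = 2 populations for each). In RPKM, Nab1 was 1.40-fold and 1.25-fold and Nab2 1.35-fold and 1.31-fold higher in the second library at passage 9 and passage 39. More strongly raised genes made up 14.9% of the 11025 genes for Nab1 and 11.9% for Nab2. The median gene was itself 0.10 higher in the second libraries, and relative to it the differences were 0.63 for Egr2, -0.61 for Egr1, 0.26 for Nab1 and 0.29 for Nab2.

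Egr3 and Egr4 stayed below the minimum of 1 RPKM and were tested only in the fit without a minimum, where 43.4% of 20333 genes passed, 27.6% with higher values in the second libraries. In it Egr4 rose by 0.54 ± 0.040 on the log2 scale (standard error; limma, adjusted p = 0.000148, n = 2 populations). That scale understates a low gene, and the ratio of RPKM of the second to the first library was 5.15 (95% counting interval 2.64 to 11.0) at passage 9 and 4.55 (2.37 to 9.59) at passage 39. In RPKM, Egr4 thus had the largest ratio of the 6 genes. Egr3 did not pass in this fit, with a log2 difference of 0.082 ± 0.058 (standard error; limma, adjusted p = 0.324). Its ratios of 1.08 and 1.21 at passage 9 and passage 39 had intervals of 0.691 to 1.67 and 0.819 to 1.79. Ratios within these bounds were thus not excluded by the counts.

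**Figure D4:**
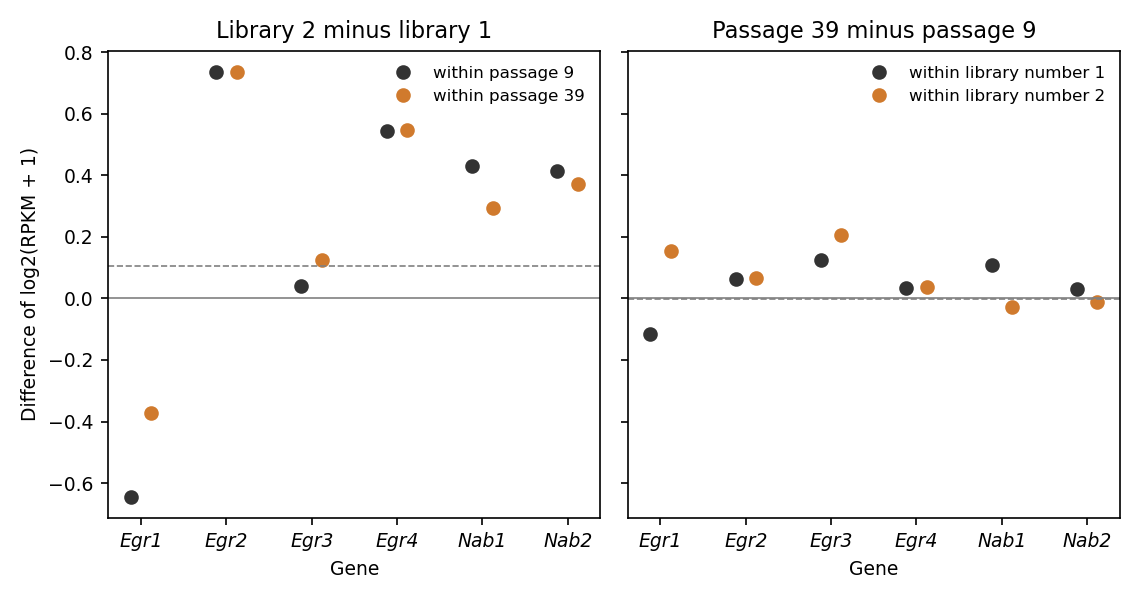
Difference of log2(RPKM + 1) for each gene, between libraries 2 and 1 within each passage (left) and between passages 39 and 9 within each library number (right); the solid line is 0 and the dashed line is the median of 11025 genes. By library number Egr2 lay at 0.73 and 0.74 in the 2 passages and Egr1 at -0.64 and -0.37, whereas by passage all values lay between -0.11 and 0.21.

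Several measures moved with the library number beside these differences. The median difference between second and first libraries ran from 0.28 in the shortest to -0.22 in the longest of 20 groups of genes ordered by recovered length. Set against genes of similar length, the log2 differences were 0.62 for Egr2, -0.73 for Egr1, 0.35 for Nab1 and 0.38 for Nab2, each with an adjusted p of 0.000155 or less (limma). Of the fibroblast markers, 2 of 2 tested, Col1a1 and Pdgfra, were higher in the second libraries. The summed level of the 5 listed went from between 3349 and 3364 RPKM to between 3778 and 3883 RPKM, nearly all of it Col1a1. Col1a2, Dcn and Lum had means of 0.339, 0.0033 and 0.0534 RPKM and were not tested. Of these, Col1a2 was higher and Dcn and Lum were lower in the second libraries. Of the neuronal markers, 2 of 2 tested, Nefl and Nefm, were lower. The summed level of 6 went from between 144 and 148 RPKM to between 99.6 and 102 RPKM, nearly all of it Nefl and Nefm. Rbfox3 and Snap25 had means of 0.00354 and 0.00291 RPKM, and Syt1 and Elavl4 were listed at 0 in every library. The Schwann cell markers summed to between 4440 and 4444 RPKM in the first and between 3545 and 3586 RPKM in the second libraries, with 7 of 9 tested lower and 2 higher. For all these marker counts, the shares over all genes were 24.4% called lower and 49.7% called higher. Sums of the other markers were at most 11.8 RPKM for melanocytes, 1.46 RPKM for leukocytes and 0.418 RPKM for endothelium. The part of other cell types in the differences of the Egr and Nab genes was not tested, and in bulk RNA fewer cells of a type and less RNA per cell cannot be told apart.

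Genes that Egr2 is known to activate in myelination were mostly lower in the second libraries, where Egr2 was higher. Of 16 such myelin genes 12 reached 1 RPKM, and 11 of them fell and 1 rose, with a median log2 difference of -0.63. The shares called over all genes were 24.4% lower and 49.7% higher. Pmp2, which encodes a fatty acid binding protein of peripheral myelin, fell from 56.6 to 7.36 RPKM (log2 difference -2.79). Mal, which encodes a raft-associated proteolipid, fell from 44.1 to 18.4 RPKM. Of the more abundant, Mag, which encodes an adhesion molecule facing the axon, fell from 78.4 to 60.3 RPKM. Pmp22 was the exception and rose by 0.080 ± 0.016 on the log2 scale (standard error; limma, adjusted p = 0.00179), from 1220 to 1290 RPKM. That rise was smaller than the median shift of 0.10, and Pmp22 no longer passed as higher after median-ratio scaling, after rescaling to a sum of 1000000 or relative to genes of similar length.

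Of the 14 genes of cholesterol and fatty acid synthesis and uptake, a programme that Egr2 also promotes, 13 fell, none rose and 1 did not pass, with a median log2 difference of -0.40. Hmgcs1 fell from 72.7 to 47.8 RPKM and Sqle from 69.6 to 47.2 RPKM. The most abundant were Scd, a fatty acid desaturase gene, which fell from 403 to 304 RPKM, and Fdps, which fell from 167 to 151 RPKM. Srebf1, a transcription factor gene of lipid synthesis, was at 13.5 and 14.2 RPKM and did not pass (limma, adjusted p = 0.107). Lower values were called for 24.4% of all 11025 genes.

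Among genes that Egr2 and Nab proteins repress, or that mark immature Schwann cells, 6 of 9 tested fell, 2 rose and 1 did not pass, with a median log2 difference of -0.091, where 24.4% of all genes were called lower. Set against genes of similar length, 8 of the 9 were lower and 1 was higher, with a median of -0.20. Notch1 fell from 32.3 to 23.2 RPKM, the intermediate filament gene Gfap from 14.9 to 10.5 RPKM, and the adhesion gene Ncam1 from 55.6 to 41.3 RPKM. Id2 and Id4, which encode inhibitors of basic helix-loop-helix factors and are repressed by Egr2 with Nab proteins, were the genes that rose, Id4 from 11.6 to 15.2 RPKM and Id2 from 35.3 to 37.4 RPKM. Id2 was no longer called higher after median-ratio scaling or after rescaling to a sum of 1000000, and it was lower than genes of similar length. The most abundant of the list was the neurotrophin receptor gene Ngfr, which fell from 292 to 274 RPKM. Rrad, the third gene known as a target of the repressive complex, was at 0.0600 RPKM and was not tested. None of the tested genes of these 3 lists differed 2-fold between the passages on the log2(RPKM + 1) scale. Untested Rrad was at 0.0627 and 0.111 RPKM in libraries 1 and 2 of passage 9. In those of passage 39 it was at 0.0189 and 0.0474 RPKM.

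The NuRD subunits that Nab proteins recruit were all expressed, with 13 of 13 genes at a mean of at least 1 RPKM. Rbbp7, a histone-binding subunit, was highest at 245 RPKM, followed by the deacetylase gene Hdac2 at 86.8 RPKM and Mbd3 at 79.1 RPKM. Chd4, the remodelling enzyme through which Nab2 acts, was at 68.5 RPKM and fell from 73.1 to 63.9 RPKM (log2 difference -0.19; limma, adjusted p = 0.000105). In all, 7 subunits rose and 2 fell in the second libraries, with a median log2 difference of 0.12, close to the 0.10 of all genes. Of all genes 49.7% were called higher and 24.4% lower, so these counts of 13 were near the background. The largest rises were 0.42 for Mta1 and 0.37 for Mbd3. The direction of this list depended on the scaling, since 3 rose and 4 fell after median-ratio scaling, and 3 rose and 5 fell after rescaling to a sum of 1000000.

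Of 12 tested genes that act upstream of Egr2 or bind its protein, 7 fell, 1 rose and 4 did not pass, with a median log2 difference of -0.12, where 24.4% of all genes were called lower. The count depended on the scaling, with 10 lower after median-ratio scaling, all 12 after rescaling to a sum of 1000000 and 9 relative to genes of similar length, and it was 5 without library 2 of passage 9. Sox10, which activates Egr2, was at 173 and 180 RPKM in the first and second libraries, a log2 rise of 0.056 (limma, adjusted p = 0.0255) that was below the median shift of 0.10. It was not called higher after median-ratio scaling, after rescaling to a sum of 1000000, relative to genes of similar length, or without library 2 of passage 9 or library 1 of passage 39. Erbb3, the neuregulin receptor gene, fell from 103 to 75.4 RPKM, and Zeb2, a repressor needed for myelination, fell from 58.4 to 42.2 RPKM. Hcfc1, which encodes a partner of Egr2, fell from 8.76 to 5.65 RPKM, and Tead1, a Hippo pathway factor gene, fell from 74.0 to 58.6 RPKM. The POU factor gene Pou3f1, an activator of Egr2 before myelination, was at 0.148 RPKM and was not tested.

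Of 17 tested immediate early genes, the class to which Egr1 belongs, 11 rose, 4 fell and 2 did not pass in the second libraries, with a median log2 difference of 0.28. Of all genes 49.7% were called higher and the median difference was 0.10, so the count was not far from the general shift. Dusp1, a phosphatase gene of the MAP kinase pathway, rose from 5.65 to 10.2 RPKM, Klf4 from 15.2 to 23.7 RPKM and Myc from 10.6 to 16.1 RPKM. The most abundant were Jund, which rose from 64.3 to 88.7 RPKM, Dusp6, which fell from 71.0 to 64.9 RPKM, and Ier5, which rose from 36.4 to 41.3 RPKM. Fos, often induced together with Egr1, was at 21.4 and 20.8 RPKM and did not pass (limma, adjusted p = 0.328). Relative to genes of similar length, 8 rose and 6 fell, with a median of 0.12.

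**Figure D5:**
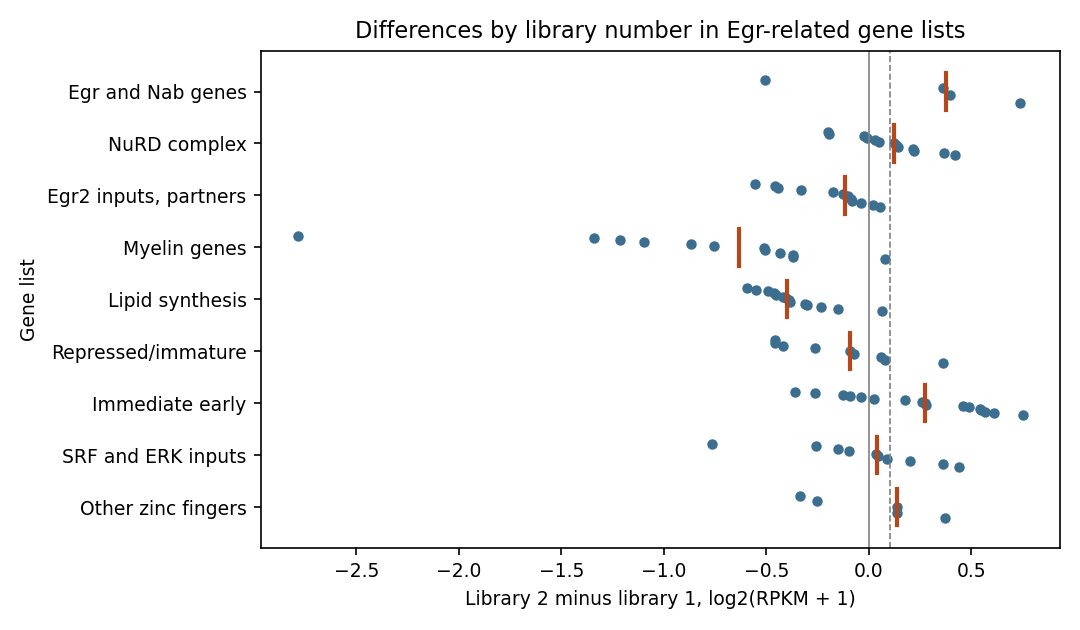
Difference of log2(RPKM + 1) between second and first libraries for each tested gene of 9 lists; points are genes, red bars are list medians, the solid line is 0 and the dashed line is the median of 11025 genes, 0.10. The myelin and lipid synthesis lists have medians of -0.63 and -0.40, the immediate early list 0.28, and the Egr and Nab genes lie on both sides of 0.

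The genes most like each Egr or Nab gene over the 4 libraries were found by the root mean square difference of log2(RPKM + 1) after centring each gene. Because the 4 libraries fall into 2 pairs, this likeness is mostly that of the difference by library number. For Egr2 they were Sh3rf3, Grb14 and Cdc42ep5, with differences of 0.0195, 0.0212 and 0.0231. For Egr1 they were Ankrd53, Slc9a9 and Rgs2, with differences of 0.0231, 0.0265 and 0.0274. Nab1 was most like Ncs1, Sumo3 and Cwc15 (0.00237, 0.00745 and 0.00788), and Nab2 was most like Rpl30, Nmral1 and Eif3b (0.00436, 0.00453 and 0.00477). Rpl30 is a ribosomal protein gene of a class with many near-identical copies, so its level is uncertain. Closer matches were thus found for the Nab genes, whose differences were nearer to those of many other genes, than for Egr1 and Egr2.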

How the data were processed

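Poly(A) RNA from S16 cells was sequenced as single-end reads in 4 libraries. The authors mapped uniquely placed reads with STAR to the rat build rn5, assigned them to genes with HTSeq in unstranded mode, and deposited 1 RPKM value per gene and library. Reads of overlapping or antisense genes therefore cannot be told apart, and reads shared by near-identical copies were lost.

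Because RPKM values of a gene are whole multiples of 1 read, reads and gene lengths were recovered as the smallest whole numbers that fit, which could hide a common factor. They were used only for exact 95% counting intervals, for a floor of 3 reads and for gene length. Levels are means over 2 populations. Second libraries were compared with first libraries by limma 3.58.1 (R 4.3.3; trended empirical Bayes, population as a block, two-sided, Benjamini-Hochberg) on log2(RPKM + 1), for genes whose mean reached 1 RPKM. A threshold of 0.05 was applied to adjusted p. Folds on this scale understate low genes. Passages were compared without a test. The fit was tested on simulated data.

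Other genes were named as up to 3 most abundant and up to 3 most changed by library number in each list, or as the 3 genes nearest in pattern. Chd4, Srebf1, Id2, Id4, Rrad, Pou3f1, Fos, Gjb1 and the markers were named outside this rule, after their values were seen. Some genes of the lists that the rule would name are not reported here. Members and lists were chosen with earlier results of these data known. Alternatives were another pseudocount (0.1 RPKM), other minimums (none, 5 RPKM), median-ratio scaling, a sum of 1000000, gene length, no block, and leaving out each library. Tables were made in Python 3.11.15 (pandas 2.3.3, numpy 2.4.6) and intervals with scipy 1.17.1.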

Additional observations from a re-analysis of the deposited data

How the results depend on the processing

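By library number, Egr1, Egr2, Nab1 and Nab2 kept their direction and an adjusted p (limma) under 0.05 in every alternative in which they were tested. Log2 differences ranged from -0.75 to -0.43 for Egr1, from 0.62 to 0.82 for Egr2, from 0.25 to 0.42 for Nab1 and from 0.26 to 0.41 for Nab2, with a highest adjusted p of 0.00483, 5.62e-05, 0.00321 and 0.000216. The count of Egr and Nab genes called was 4, apart from 5 without a minimum, where Egr4 was added, and 3 with a minimum of 5 RPKM, where Egr1 was not tested. The 8170 calls over all genes ranged from 6527 with a minimum of 5 RPKM to 8829 without one. Between the passages, no Egr or Nab gene differed 2-fold in any alternative on the log2 scale, which understates folds of Egr3 and Egr4. The 1 gene of all genes that did became 4 when 0.1 RPKM replaced the pseudocount, 2 when libraries were rescaled to 1000000, and 0 above the higher minimum. Leaving out 1 library gave between 13 and 17 genes, namely 17 without library 1 and 13 without library 2 of passage 9, and 14 without library 1 and 17 without library 2 of passage 39. It leaves a passage with a single library number, and the log2 difference of Egr2 between passages then ran from -0.30 to 0.43. In fits without 1 library the block was dropped, and the lone library of a number was assumed to vary like the others. No paired analysis was possible because the libraries of a passage are labelled technical replicates of 1 population, which leaves no residual degrees of freedom among populations. Passage values within each library number are given as values without a test. Depth limits Egr3 and Egr4, with as few as 42 and 11 reads.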

Other observations

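The kinases and factors that act on the serum response element of genes such as Egr1 did not move one way by library number. Of 10 genes tested, 4 rose, 4 fell and 2 did not pass in the second libraries. The shares over all genes were 49.7% called higher and 24.4% called lower. The median log2 difference of the 10 was 0.041, and after rescaling to a sum of 1000000, 2 rose and 6 fell. Mrtfb, a serum response factor coactivator gene listed under its older symbol Mkl2, fell from 6.26 to 3.27 RPKM (log2 difference -0.77; limma, adjusted p = 3.22e-06). The MAP kinase kinase genes Map2k2 and Map2k1 rose from 83.8 to 114 RPKM and from 27.0 to 34.9 RPKM. Mapk3, which encodes an ERK kinase, was at 136 RPKM and did not pass (limma, adjusted p = 0.0811).

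Of the other zinc-finger factor genes whose products bind GC-rich sites, 5 were tested, of which 2 rose, 2 fell and 1 did not pass. Over all genes, 49.7% were called higher and 24.4% lower. Sp1 fell from 17.2 to 13.4 RPKM and Sp3 from 5.23 to 4.23 RPKM, while Klf10 rose from 10.9 to 14.4 RPKM. Wt1, whose protein binds sites much like those of Egr1, was at 0.676 RPKM and was not tested. None of the tested genes of these lists differed 2-fold between the passages on the log2(RPKM + 1) scale.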
